A study of Homo sapiens with 16 samples.

Results

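Complement genes were examined in U251 and U343, 2 human glioblastoma cell lines, by reading the rows of 9 genes chosen by name: C1R, C1S, C3, CFB, CFI, SERPING1, CD46, CD55 and CD59. Of these 9 genes, 8 were found among the 20314 genes of the U251 tables and the 20626 genes of the U343 tables, and CFB was not analysed here. Cells of both lines were reverse transfected at 25 nM with a miR-137 mimic, a synthetic copy of the microRNA, or with a control mimic, and were grown for 48 hours. Total RNA (RNASeq) and RNA pulled down with antibodies to the poly(A)-binding protein PABP (RIPSeq) were sequenced after ribosomal RNA depletion, which gave 4 experiments with 2 control and 2 miR-137 libraries in each, 16 libraries in all. The comparison asks how the complement genes stood with miR-137 raised, in total and in PABP-bound RNA. Nothing in the labels says that libraries of a group came from separate cultures, so the p-values measure the spread between these libraries, which may be technical.

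Complement is a cascade of blood and tissue proteins that tags cells and microbes and can lyse them. The classical pathway starts when the C1 complex, which holds the proteases C1r and C1s, binds a target; all pathways meet at C3, whose cleavage products coat the target, and end in a membrane pore. Host cells restrain the cascade with soluble inhibitors, among them C1 inhibitor and factor I, and with the membrane proteins CD46, CD55 and CD59. Liver makes most plasma complement, and astrocytes, microglia and glioma cells are known to make many of its components as well.

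A microRNA pairs through its seed with messenger RNAs, mostly in their 3′ ends, and lowers their stability or translation, and PABP binds poly(A) tails and helps translation, which is why PABP-bound RNA was measured beside total RNA. The agent shared by all miR-137 libraries is shown first. The RefSeq mature sequence of hsa-miR-137-3p lies at chr1:98046091-98046113 on the minus strand of GRCh38.p14 and has its seed, bases 2 to 8, in capitals.
hsa-miR-137-3p: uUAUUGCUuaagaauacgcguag

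The 250 bases before the start of 3 members follow, in lower case, 5′ to 3′ on the strand of the gene, from RefSeq (GRCh38.p14). C1R (chr12:7092446-7092695) was chosen as a member that rose with miR-137, and CFI (chr4:109802000-109802249) and CD59 (chr11:33736480-33736729) as members that fell, all 3 on the minus strand.
C1R: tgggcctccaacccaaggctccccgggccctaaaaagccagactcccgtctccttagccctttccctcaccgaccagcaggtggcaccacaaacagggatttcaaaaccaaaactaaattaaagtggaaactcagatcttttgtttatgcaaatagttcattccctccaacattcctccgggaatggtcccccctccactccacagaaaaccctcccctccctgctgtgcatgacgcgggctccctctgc
CFI: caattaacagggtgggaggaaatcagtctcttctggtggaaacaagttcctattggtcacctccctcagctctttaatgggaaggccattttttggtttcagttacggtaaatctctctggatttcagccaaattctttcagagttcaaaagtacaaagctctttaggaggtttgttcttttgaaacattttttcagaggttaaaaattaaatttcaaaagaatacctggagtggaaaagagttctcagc
CD59: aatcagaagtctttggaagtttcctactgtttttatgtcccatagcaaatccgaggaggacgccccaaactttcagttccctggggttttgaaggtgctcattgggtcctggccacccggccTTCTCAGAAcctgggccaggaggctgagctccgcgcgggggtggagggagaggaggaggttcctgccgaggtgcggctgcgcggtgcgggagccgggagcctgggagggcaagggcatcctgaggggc
Capitals in the CD59 window mark a match, 128 bases before the start, to TTCNNNGAA, the core of the gamma-activated site, an interferon gamma response motif. The core of the interferon-stimulated response element, GAAANNGAAA, and TTCNNNGAA were searched on both strands in the 5 listed members with an entry, C1R, CFI, CD46, CD55 and CD59. GAAANNGAAA was in 0 of the 5 windows and TTCNNNGAA in that of CD59 only. The window of CFB, whose counts were not analysed here, held GAAANNGAAA at 140 and TTCNNNGAA at 92 bases before the start. Of 35116 windows of the same length, 3.02% and 6.57% held them. A match is a description of letters, and letters that are absent say nothing beyond these 250 bases.

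Library depth ranged from 10156675 to 18224061 counted reads in U251 RNASeq, from 22359794 to 30731476 in U251 RIPSeq, from 37952273 to 45134766 in U343 RNASeq and from 37736206 to 45055184 in U343 RIPSeq. All 7 glioma or astrocyte lineage genes examined, VIM, CD44 and SOX2 among them, had reads in every group, and their summed level was 6052 to 16595 CPM, read counts scaled by library total and TMM factors within an experiment. GFAP and S100B were low in U251, with group means of 3.53 to 32 CPM and 0.223 to 1.75 CPM. The 8 microglia or macrophage genes in the tables summed to 0.693 to 5.57 CPM and the 3 hepatocyte genes to at most 1.61 CPM. The endothelial list (PECAM1, CDH5, VWF) summed to 23.3 to 37.8 CPM in U343 and to at most 3.13 CPM in U251, and the epithelial list (EPCAM, KRT8, CDH1) to 50.8 to 181 CPM over both lines. By group mean PECAM1 was at 0.7 to 1.12 CPM in U343, so CDH5 and VWF made most of that sum. EPCAM was at most at 0.114 CPM, with KRT8 at 58.2 to 153 CPM in U251 and CDH1 at 71.8 to 93 CPM in U343. U251 and U343 libraries were also made with different kits, so cell line and kit cannot be told apart. In bulk RNA, fewer cells of a kind and less RNA per cell cannot be told apart either.

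2 features of the libraries touch the members' values. First, the library labelled U343 RNASeq miR-137 replicate 1 stood near its controls for most of 8 genes of the interferon response, IFIT1 among them, most of which were far higher in the other 7 miR-137 libraries. IFIT1, an interferon-induced antiviral protein, had 410 reads there and 76721 in replicate 2, against 624 and 517 in the controls. IFNB1, which encodes interferon beta, had 1 and 817 reads, against 1 and 1. Summed over the 8 genes, the level was 337 CPM in replicate 1 and 6491 CPM in replicate 2, against 317 and 302 CPM in the controls. IRF9 was the gene of these 8 with the highest ratio in replicate 1, at 2.76 times the control mean against 18.3 times in replicate 2, and MX1 was at 0.478 and 1.06 times. Second, the 2 controls of U251 RIPSeq were unlike each other, with a median absolute log2 difference of 0.63 over 11467 genes, against 0.06 between the 2 miR-137 libraries of that experiment. Why either difference arose was not tested, and the treated group of U343 RNASeq, also in the comparisons of lines and assays, holds 2 unlike libraries.

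The proteases C1R and C1S rose with miR-137 in U251 RNASeq and U343 RIPSeq, and CFI, CD46 and CD59 fell in both. Inhibitors moved both ways: CD55 rose in U251 RNASeq and C1 inhibitor, SERPING1, in U343 RIPSeq. In U251 RNASeq, 6 members passed the filter on low counts, and C1R, C1S and CD55 rose while CFI, CD46 and CD59 fell, at an adjusted p under 0.05 in edgeR's quasi-likelihood test. These 3 rises and 3 falls of 6 stand beside 28.7% of 13052 genes higher and 29.0% lower (57.7% in either direction). In U343 RIPSeq, 4 of 8 rose (C1R, C1S, C3, SERPING1) and 3 fell (CFI, CD46, CD59), beside 28.5% of 14866 genes higher and 27.8% lower (56.3% in all). In U343 RNASeq, 0 of 7 rose and 2 fell (CFI, CD59), beside 8.31% and 11.7% of 15088 genes. In U251 RIPSeq, 0 of 8 passed, beside 1.21% of 14087 genes, with 2 members and 2828 genes at an unadjusted p under 0.05. The median log2 fold change of the tested members was 0.81, 0.42, 0.22 and 0.45 in U251 RNASeq, U251 RIPSeq, U343 RNASeq and U343 RIPSeq, where that of all tested genes was 0.02, -0.02, 0.02 and 0.00.

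**Figure D1:**
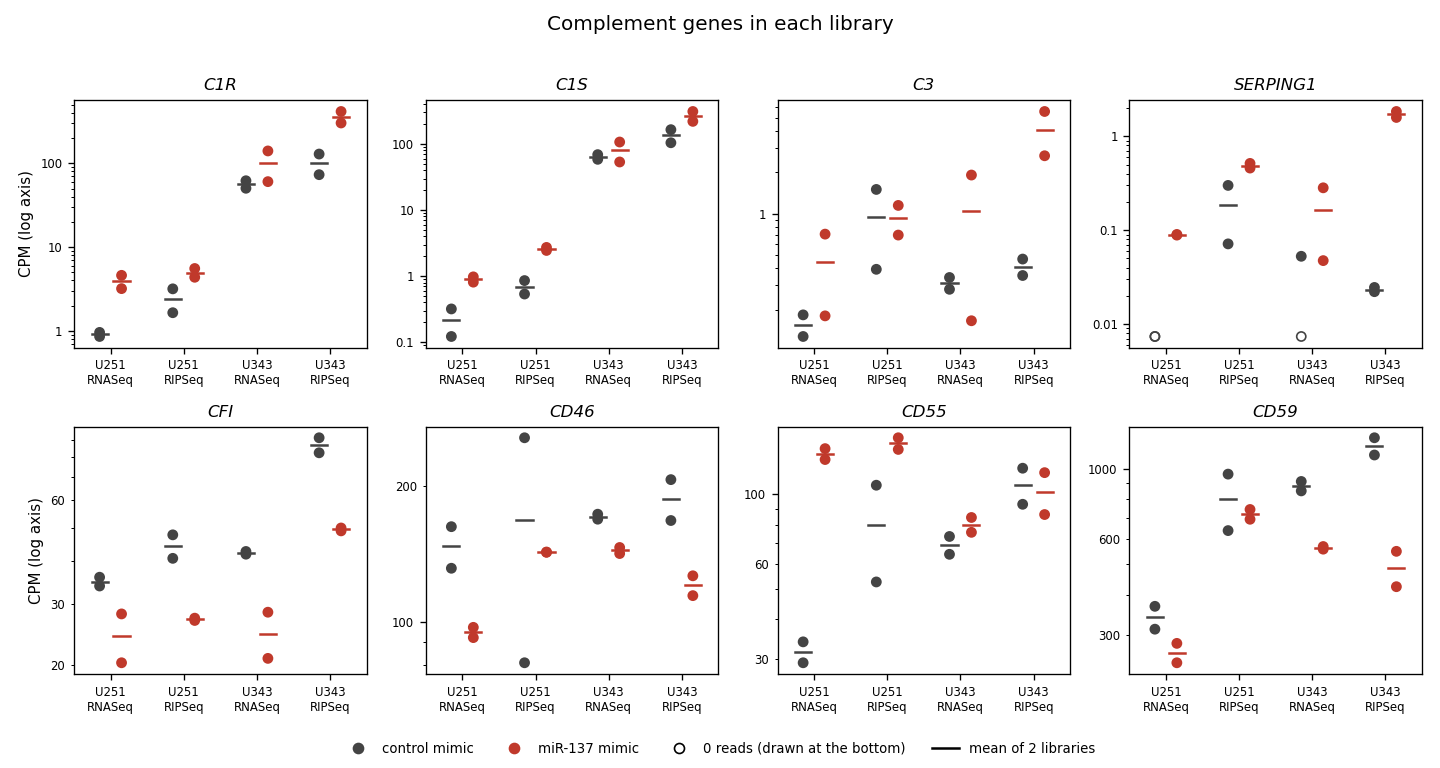
Level of the 8 complement genes in each of the 16 libraries, as CPM on a log axis, by cell line and assay; grey points are control and red points miR-137 libraries, short lines are means of 2, and open points at the bottom mark 0 reads. CFI was lower in both miR-137 libraries than in both controls of every experiment, and U343 RNASeq miR-137 libraries lay apart for C1R, C1S and C3.

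C1R encodes C1r, the protease that starts the classical pathway by cleaving itself and then C1s, and lies at chr12:7057770-7136184 in hg18, the build of the tables. In U251 it was scarce, with 15 and 14 control reads and 51 and 36 miR-137 reads in RNASeq. The groups did not overlap, as for 40.3% of tested genes there with both miR-137 libraries higher (29.0%, 32.8% and 39.7% in U251 RIPSeq, U343 RNASeq and U343 RIPSeq), and C1R rose by a log2 fold change of 2.09 (SE 0.32, edgeR adjusted p = 0.00011). In U251 RIPSeq the controls had 74 and 46 reads and the miR-137 libraries 114 and 151, again without overlap, but the difference of 1.05 (SE 0.40) did not pass (edgeR adjusted p = 0.25). In U343 the gene was abundant. U343 RIPSeq gave 73.3 and 129 CPM in the controls and 304 and 417 CPM with miR-137, all above the controls, a rise of 1.83 (SE 0.26, edgeR adjusted p = 0.00074). U343 RNASeq gave 62.0 and 50.4 CPM in the controls and 60.5 and 141 CPM with miR-137, so that replicate 1 sat among the controls and replicate 2 above both. The difference over both replicates was 0.84 (SE 0.42, edgeR adjusted p = 0.23).

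C1S encodes C1s, the protease that cleaves C4 and C2 once C1r has activated it, and its locus at chr12:7038241-7048594 lies 9176 bases from C1R. U251 RNASeq gave 5 and 2 control reads and 9 and 11 miR-137 reads, which did not overlap as CPM, a rise of 1.99 (SE 0.59, edgeR adjusted p = 0.010). This call rests on few reads: without control replicate 2 the value was 1.45 (edgeR adjusted p = 0.18), without miR-137 replicate 2 it was 1.85 (edgeR adjusted p = 0.075), and with DESeq2 the adjusted p was 0.10. U251 RIPSeq had 20 and 15 control reads against 64 and 74, without overlap, and a difference of 1.89 (SE 0.38, edgeR adjusted p = 0.11). In U343 RIPSeq the controls were at 104 and 165 CPM and the miR-137 libraries at 220 and 310 CPM. All miR-137 values lay above the controls, a rise of 0.98 (SE 0.23, edgeR adjusted p = 0.0080), which was 0.68 without control replicate 1 (edgeR adjusted p = 0.054) and 0.96 in a joint fit of the 8 U343 libraries (edgeR adjusted p = 0.064). In U343 RNASeq the controls were at 68.9 and 58.6 CPM and the miR-137 libraries at 53.4 and 107 CPM, 1 below and 1 above both controls.

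C3, the component on which all pathways converge, lies at chr19:6628846-6671662 and had few reads in either line. In U343 RIPSeq, 16 and 19 control reads stood against 103 and 217 with miR-137. These did not overlap, a rise of 3.31 on the log2 scale (SE 0.42, edgeR adjusted p = 0.00041) and a ratio of summed reads of 10.0 with an exact 95% interval of 7.06 to 14.7. Reads amplified by PCR are not independent molecules, so such intervals cover counting error only. In U343 RNASeq the controls had 13 and 13 reads and the miR-137 libraries 7 and 81, 1 below and 1 above. In U251 RIPSeq the controls had 35 and 11 reads and the miR-137 libraries 30 and 19, which overlapped (log2 difference -0.02, SE 0.75). U251 RNASeq held 2, 3, 2 and 8 reads and was not tested.

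SERPING1 encodes C1 inhibitor, which removes C1r and C1s from the C1 complex, and lies at chr11:57121603-57138902. U343 RIPSeq had 1 and 1 control reads and 62 and 72 with miR-137, without overlap. The rise was 6.02 (SE 0.41, edgeR adjusted p = 2.1e-05), and the ratio of summed reads was 73.5, with an interval of 19.9 to 613 because only 2 control reads were counted. U343 RNASeq had 0 and 2 control reads against 2 and 12, of which only replicate 2 was higher. U251 RIPSeq had 7 and 2 against 12 and 14, a difference of 1.42 (SE 0.79, edgeR adjusted p = 0.40), and U251 RNASeq had 0 and 0 against 1 and 1, where no fold can be given. A soluble inhibitor was thus among the members that rose, in 1 experiment.

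CFI encodes factor I, the protease that inactivates C3b and C4b with a cofactor, and lies at chr4:110881297-110942784. It was lower in both miR-137 libraries than in both controls of all 4 experiments, and passed the test in 3. Over all tested genes, both miR-137 libraries lay below both controls for 39.2% in U251 RNASeq, 25.8% in U251 RIPSeq, 32.9% in U343 RNASeq and 38.8% in U343 RIPSeq. U343 RIPSeq gave 82.4 and 91.1 CPM in the controls and 49.9 and 49.0 CPM in the treated libraries, which is -0.81 on the log2 scale (SE 0.09, edgeR adjusted p = 0.00016). U343 RNASeq gave 42.7 and 41.9 CPM against 20.9 and 28.5 CPM, so the library at control level for interferon genes held the lowest CFI value of its experiment. CFI fell there (-0.78, SE 0.17, edgeR adjusted p = 0.046). Without the first and second control it was at -0.76 and -0.79, with 1 library left in that arm, where the test cannot decide. U251 RNASeq gave 33.9 and 35.9 CPM against 28.1 and 20.3 CPM, all miR-137 values below the controls (-0.53, SE 0.16, edgeR adjusted p = 0.013; -0.32 without miR-137 replicate 2, edgeR adjusted p = 0.13). U251 RIPSeq gave 40.8 and 47.7 CPM against 26.9 and 27.3 CPM, a difference of -0.70 (SE 0.25) that did not pass (edgeR adjusted p = 0.22).

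CD59, the membrane protein that blocks the final pore, lies at chr11:33681132-33714601 and had the most reads of the 8 members in every library. U343 RIPSeq fell from 1252 and 1105 CPM to 549 and 425 CPM, without overlap (-1.28, SE 0.15, edgeR adjusted p = 0.00029). U343 RNASeq fell from 851 and 912 CPM to 558 and 568 CPM, with the 2 miR-137 libraries close together and both below the controls (-0.65, SE 0.08, edgeR adjusted p = 0.015). Without the first and second control CD59 was there at -0.69 and -0.60, with 1 library left in that arm. U251 RNASeq gave 312 and 368 CPM against 244 and 281 CPM, again without overlap, a smaller fall (-0.37, SE 0.14, edgeR adjusted p = 0.037). That call was lost without control replicate 2 (-0.25, edgeR adjusted p = 0.33) and without miR-137 replicate 1 (-0.26, edgeR adjusted p = 0.14). In U251 RIPSeq the miR-137 libraries, at 693 and 744 CPM, lay between the controls at 638 and 962 CPM (-0.16, SE 0.26, edgeR adjusted p = 0.78).

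CD46, the membrane cofactor for factor I, lies at chr1:205992025-206035481. It fell in U251 RNASeq from 163 and 131 CPM to 97.1 and 92.1 CPM (-0.64, SE 0.14, edgeR adjusted p = 0.0014) and in U343 RIPSeq from 207 and 168 CPM to 126 and 114 CPM (-0.64, SE 0.12, edgeR adjusted p = 0.0027). U343 RNASeq gave 169 and 173 CPM in the controls and 142 and 146 CPM with miR-137, both lower and close together, a difference of -0.25 (SE 0.09) that did not pass (edgeR adjusted p = 0.12). In U251 RIPSeq the controls, at 81.0 and 256 CPM, lay on either side of the miR-137 libraries at 143 and 143 CPM.

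CD55, or decay-accelerating factor, takes apart the C3 convertases on the cell surface and lies at chr1:205561440-205600934, on the same chromosome arm as CD46. In U251 RNASeq it rose from 29.1 and 33.9 CPM to 140 and 129 CPM (2.09, SE 0.14, edgeR adjusted p = 5.1e-08), the only membrane inhibitor of the 3 to rise there. U251 RIPSeq had 52.6 and 107 CPM in the controls and 139 and 151 CPM with miR-137, without overlap but not past the threshold (0.86, SE 0.40, edgeR adjusted p = 0.33). U343 RNASeq had 64.4 and 73.4 CPM against 75.6 and 84.3 CPM (0.22, SE 0.11, edgeR adjusted p = 0.25), and U343 RIPSeq had 121 and 92.9 CPM against 117 and 86.1 CPM, which overlapped (-0.07, SE 0.17, edgeR adjusted p = 0.74).

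**Figure D2:**
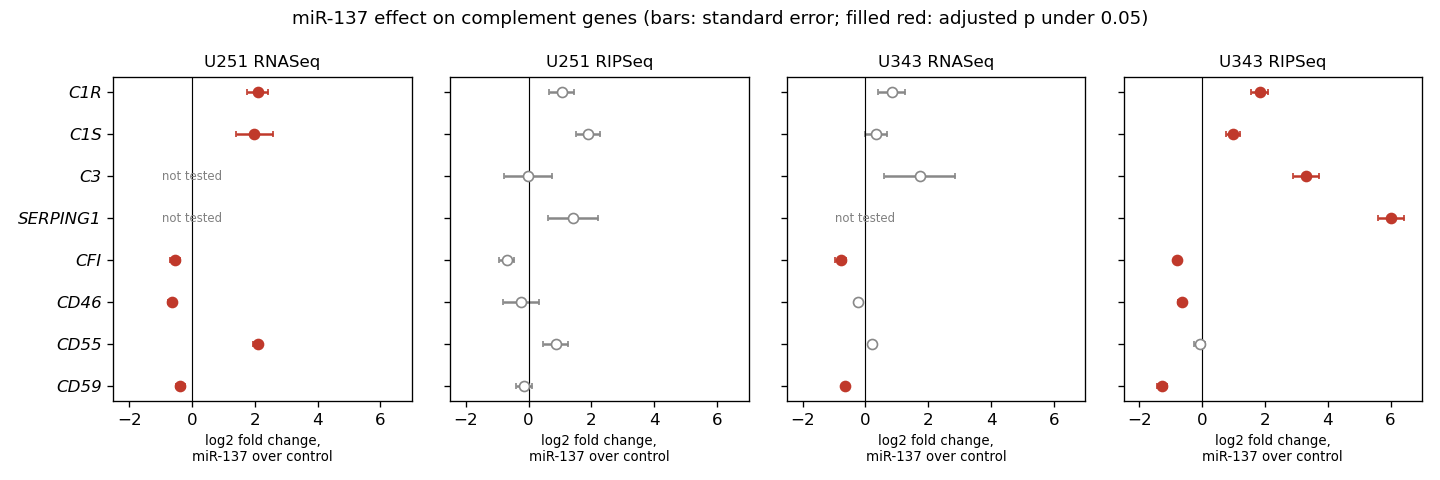
Log2 fold change of the miR-137 over the control libraries for each complement gene in the 4 experiments, with the standard error of the edgeR fit; filled red points have an adjusted p under 0.05 and genes below the filter are marked as not tested. CD55 stood at 2.09 in U251 RNASeq and at -0.07 in U343 RIPSeq, and CFI was below 0 in each panel.

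The miR-137 effect on CD55 in total RNA differed between the cell lines. Its log2 fold change was lower in U343 than in U251 by 1.88, from an interaction of -1.88 (SE 0.19, edgeR adjusted p = 0.00092), and lay between -1.99 and -1.76 with any 1 of the 8 libraries left out. CD55 was the only one of 7 tested members to pass, beside 25.2% of 15550 genes (12.7% in this direction). CFI gave -0.26 (SE 0.27, edgeR adjusted p = 0.52), CD59 -0.28 (SE 0.18, edgeR adjusted p = 0.30) and CD46 0.38 (SE 0.18, edgeR adjusted p = 0.17), which does not show that the lines acted alike. C1R (-1.27, SE 0.67) and C1S (-1.69, SE 0.91) did not pass. They depended on which U343 RNASeq miR-137 library was used: without replicate 1 they were at -0.78 (edgeR adjusted p = 0.11) and -1.27 (edgeR adjusted p = 0.11), with 1 member passing beside 32.7% of genes, and without replicate 2 at -2.00 (edgeR adjusted p = 0.00052) and -2.27 (edgeR adjusted p = 0.0058), with 3 members beside 36.9% of genes.

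In RIPSeq, 0 of 8 members passed for a difference between the lines, beside 3.28% of 15959 genes (2.06% higher, 1.22% lower), with 3 members and 3353 genes at an unadjusted p under 0.05. The 3 were SERPING1 (4.62, SE 1.02, edgeR adjusted p = 0.059), C3 (3.38, SE 0.94, edgeR adjusted p = 0.096) and CD59 (-1.07, SE 0.31, edgeR adjusted p = 0.11). With DESeq2, SERPING1 and C3 passed (adjusted p = 0.0071 and 0.0064). Without U251 RIPSeq control replicate 1 the count was 1, beside 33.7% of genes, and without control replicate 2 it was 5, beside 52.8% of genes.

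The RIPSeq and RNASeq effects of miR-137 were also set against each other within each line. 0 of 7 members in U251 and 0 of 8 in U343 passed, beside 0.134% of 14210 genes (0.106% higher, 0.0281% lower) and 0.00649% of 15413 genes, with 1 member in each line and 2688 and 2712 genes at an unadjusted p under 0.05. That member was CD55 in U251 (-1.27, SE 0.43, edgeR adjusted p = 0.20) and CD59 in U343 (-0.63, SE 0.20, edgeR adjusted p = 0.21). CFI gave the smallest difference in U343, -0.03 (SE 0.20). Counts of members called were 1 and 4 without the first and second U251 RIPSeq control, beside 20.1% and 58.0% of genes. In U343 the count was 0 without RNASeq miR-137 replicate 1, beside 0.191% of genes, with C1R at 0.51 and C3 at 0.70, and 3 (C1R, C1S, C3) without replicate 2, beside 19.8% of genes.

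The 2 U343 RNASeq miR-137 libraries were far apart for some members and close together for others. Relative to the control mean, C1R was at 1.08 times in replicate 1 and 2.50 times in replicate 2, C1S at 0.837 and 1.68 times, and C3 at 0.532 and 6.12 times. OAS1, an antiviral enzyme of the interferon response, was at 1.36 and 114 times and IRF1, a transcription factor of that response, at 0.808 and 5.08 times in the same libraries. CD59 was at 0.633 and 0.645 times, CD46 at 0.828 and 0.854 times and CFI at 0.494 and 0.673 times, below the controls in both. CD55 stood at 1.10 and 1.22 times. The U343 RIPSeq replicates were close to each other for IRF1 and IFIT1, and in both of them C1R, C1S and C3 were above and CFI, CD46 and CD59 below the controls.

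**Figure D3:**
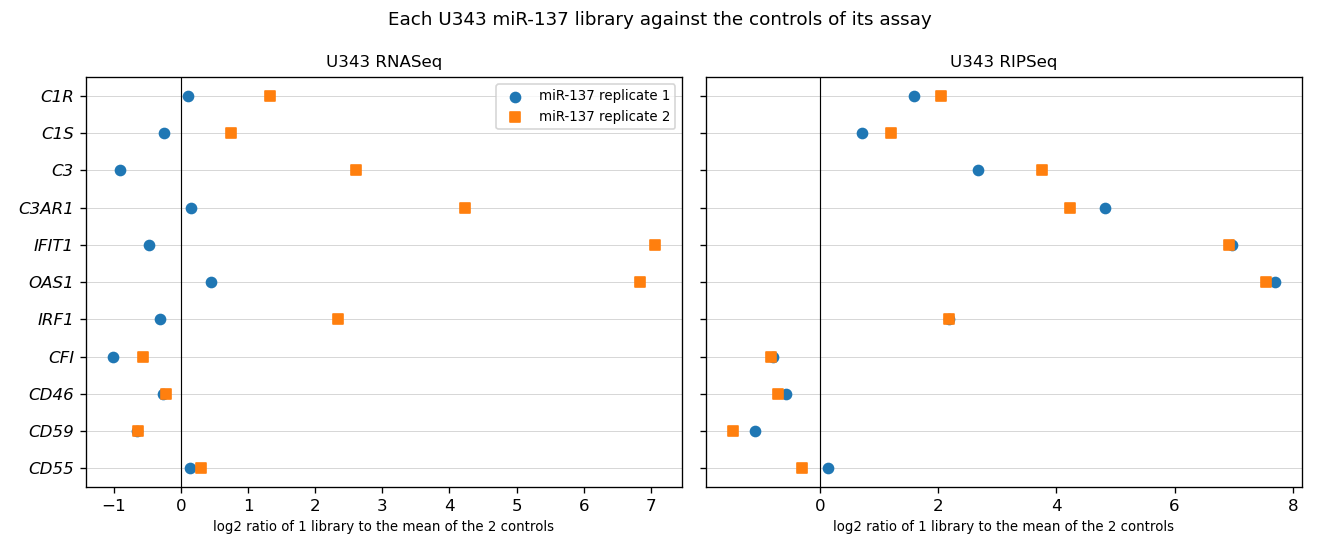
Log2 ratio of each U343 miR-137 library to the mean of its 2 controls, for complement genes (C1R to C3AR1 and CFI to CD55) and 3 interferon-response genes (IFIT1, OAS1, IRF1), in RNASeq and RIPSeq; circles are replicate 1 and squares replicate 2. In RNASeq, replicate 1 of C1R (1.08 times) and IRF1 (0.808 times) lay near the control mean whereas CD59 was at 0.633 and 0.645 times in the 2 libraries.

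Without U343 RNASeq miR-137 replicate 1, where the lone remaining library is assumed to vary like the controls, 5 of 7 members passed in place of 2. C1R was at 1.32 (edgeR adjusted p = 0.00069), C1S at 0.74 (edgeR adjusted p = 0.0038) and C3 at 2.60 (edgeR adjusted p = 0.0020), with CFI and CD59 still lower. Without the first and second control of that experiment CFI was at -0.76 and -0.79 and CD59 at -0.69 and -0.60. With 1 control left the test cannot decide for these genes, so sizes alone are given for those fits. The 5 of 7 stand beside 39.6% of 15509 genes in the same fit. In U251 RIPSeq, leaving out 1 control leaves 1 library in that arm and a spread taken from the 2 close miR-137 libraries, and most genes then pass: 68.1% of 14309 without control replicate 1, where 8 members passed, and 74.4% of 15682 without control replicate 2, where 6 did. CD46 then turned from -0.85 to 0.91 and CD59 from -0.42 to 0.26, while C1R (1.59 and 0.74), C1S (2.26 and 1.68), CD55 (0.44 and 1.55) and CFI (-0.82 and -0.50) kept their direction.

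The study's own rule, which asks each of the 4 library pairs for an adjusted p below 0.001 in Fisher's exact test and an odds ratio above 2, was mirrored here for genes that rose. It called fewer members than edgeR in 3 experiments and 1 more in U251 RIPSeq. In U251 RNASeq it called C1R and CD55 higher and 0 members lower, beside 6.14% and 2.21% of 20314 genes. In U251 RIPSeq it called C1S higher, beside 3.47% of genes higher and 1.49% lower. In U343 RIPSeq it called C1R, C3 and SERPING1 higher and CD59 lower, beside 4.83% and 3.40% of 20626 genes, and in U343 RNASeq 0 members, beside 1.51% and 2.88%.

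Marker levels that moved with miR-137 in U251 RNASeq belong beside the counts of that experiment. The glioma or astrocyte list summed to 12382 and 12762 CPM in the controls and to 6052 to 6259 CPM with miR-137, and the microglia or macrophage list to 0.794 to 2.43 CPM and 3.81 to 4.24 CPM. In the former, mean VIM went from 8190 to 3590, CD44 from 3590 to 2070, NES from 404 to 170, GFAP from 32 to 3.53 and S100B from 1.75 to 0.223 CPM. SOX2 was at 111 and 107 CPM and EGFR at 250 and 211 CPM. In U251 RIPSeq that list was also lower, at 8150 to 8282 CPM against 11250 to 15756 CPM. In the microglia or macrophage list of U251 RNASeq, CSF1R went from a mean of 0.881 to 2.10 CPM and CD14 from 0.350 to 1.25 CPM, PTPRC was at 0.348 and 0.449 CPM, and the other 5 genes, C1QA, C1QB, C1QC, CX3CR1 and TYROBP, were at most at 0.0902 CPM in either group, C1QA at 0 in both. Of the 8 interferon-response genes, 7 were tested in U251 RNASeq and all 7 rose, with a median of 6.47. In U251 RIPSeq 7 of 8 rose, in U343 RNASeq 0 of 7 and in U343 RIPSeq 7 of 8. Their part in the members' values was not tested.

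Other genes of the complement system were taken as a list of 48, of which 45 were in the tables and 10 to 21 were tested per experiment. In U343 RIPSeq 6 of 21 rose and 2 fell, in U251 RNASeq 5 of 10 rose and 3 fell, in U343 RNASeq 2 of 21 rose and 1 fell, and in U251 RIPSeq 1 of 18 rose. The list's median was 0.07, 0.23, 0.07 and -0.54 in that order, against all-gene medians of 0.00, 0.02, 0.02 and -0.02. Over all genes tested, 56.3%, 57.7%, 20.0% and 1.21% passed in these experiments in either direction.

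C5, the component that starts the terminal pathway, fell in 3 experiments and kept to the pattern of CFI and CD59 in U343 RNASeq. It had 947 and 694 control reads there and 362 and 310 with miR-137, low in both libraries (-1.29, SE 0.15, edgeR adjusted p = 0.013). It fell by 1.61 on the log2 scale in U251 RNASeq (195 and 198 against 55 and 35 reads) and by 1.66 in U343 RIPSeq (752 and 770 against 218 and 222 reads), from fold changes of -1.61 and -1.66 (edgeR adjusted p = 4.1e-05 and 2.5e-05). C3AR1, the receptor for the C3a fragment, rose in U251 RNASeq (2.09), U251 RIPSeq (3.86) and U343 RIPSeq (4.55), and in U343 RNASeq had 41 and 33 control reads against 41 and 698, so only replicate 2 was high. C5AR1, the C5a receptor, rose in U343 RNASeq, where it had 35 and 20 control reads against 114 and 104, high in both libraries (1.99, SE 0.26, edgeR adjusted p = 0.015), and in U343 RIPSeq (2.57, SE 0.24, edgeR adjusted p = 8.6e-05).

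Among the members, C1R and C1S differed most between the 2 lines with the control mimic. Of 20 other complement genes tested, 14 were higher and 4 lower in U343, beside 40.9% and 35.9% of 15550 genes. COLEC12 and CPN2 were higher in U343 by 8.65 and 7.84 log2 units (SE 1.10 for each), COLEC12 from 1 and 4 reads in U251. SUSD4 was higher by 6.63 (SE 0.28), and CFHR4 went the other way (-7.62, SE 1.06). In control total RNA, U343 exceeded U251 by 6.01 log2 units for C1R (SE 0.49, edgeR adjusted p = 7.8e-06) and by 8.22 for C1S (SE 0.50, edgeR adjusted p = 1.7e-06). CD59 (1.43, SE 0.13) and CD55 (1.19, SE 0.13) were higher by less. CFI (0.33, SE 0.19, edgeR adjusted p = 0.13), CD46 (0.28, SE 0.13, edgeR adjusted p = 0.077) and C3 (1.03, SE 1.44, edgeR adjusted p = 0.53) did not pass. The 4 of 7 members higher in U343 stand beside 40.9% of 15550 genes (76.8% in either direction). With any 1 control library left out, C1R lay between 5.87 and 6.15 and C1S between 7.70 and 9.04.

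PABP-bound RNA of control cells held more of several members than total RNA did, relative to the other genes of each library. In U251, C1R (1.55, SE 0.42), C1S (1.78, SE 0.55), CD55 (1.48, SE 0.31) and CD59 (1.38, SE 0.23) were higher in RIPSeq, 4 of 7 tested beside 22.3% of 14210 genes (edgeR adjusted p of 0.022, 0.035, 0.0089 and 0.0037). C3, with 2 and 3 control reads in RNASeq, had the largest ratio there (2.69, SE 0.94) but did not pass (edgeR adjusted p = 0.052). C3 passed with DESeq2 (adjusted p = 0.021) and with upper-quartile normalization (edgeR adjusted p = 0.0498). In U343, C1S (1.20, SE 0.36), CFI (1.16, SE 0.15), CD55 (0.76, SE 0.19) and CD59 (0.54, SE 0.14) were higher, 4 of 8 beside 18.2% of 15413 genes (edgeR adjusted p of 0.040, 0.0015, 0.020 and 0.023). CD46 was not called in either line (0.34, SE 0.44 in U251 and 0.25, SE 0.12 in U343, edgeR adjusted p = 0.56 and 0.15), but in U251 it was 0.90 (edgeR adjusted p = 0.00018) without RIPSeq control replicate 1 and -0.80 (edgeR adjusted p = 0.00031) without control replicate 2. Calls of members changed with 1 control library left out, as did the share of all genes called, since such a fit leaves 1 library in a group. In U251, with any 1 of the control libraries left out, C1R lay between 0.96 and 1.86 and C1S between 1.17 and 2.49. CD55 lay between 0.80 and 1.86 and CD59 between 0.97 and 1.60. In U343, without any 1 of the 4 controls, C1S lay between 0.84 and 1.49 and CFI between 1.09 and 1.23. CD55 lay there between 0.55 and 0.94 and CD59 between 0.44 and 0.63.

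**Figure D4:**
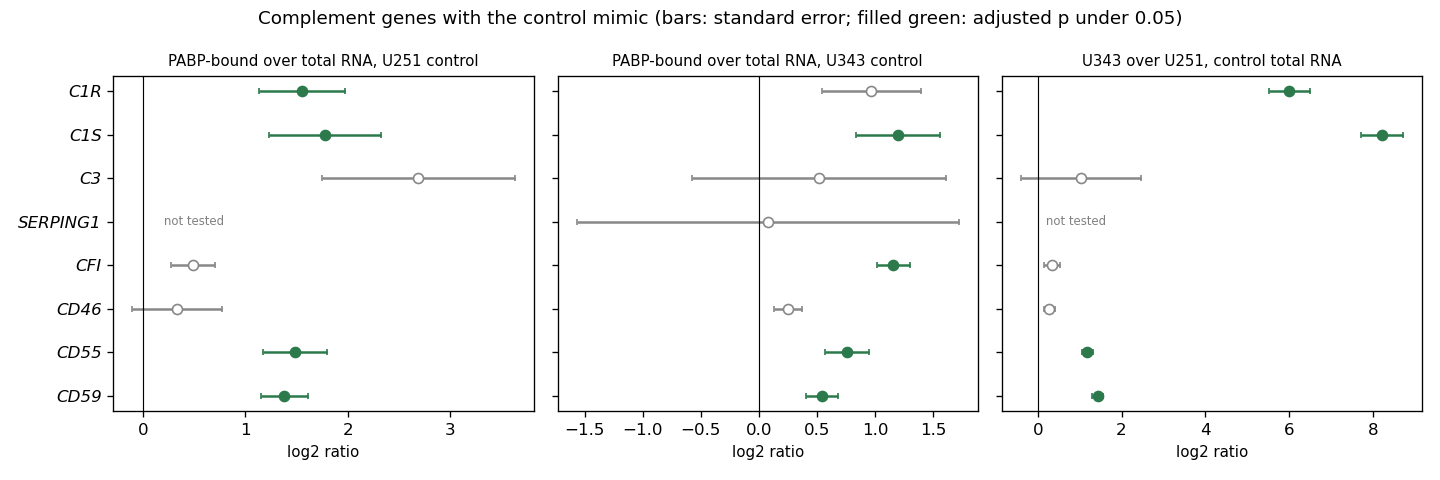
Log2 ratio of each complement gene between PABP-bound and total RNA of control cells in U251 and U343, and between U343 and U251 in control total RNA, with the standard error of the edgeR fit; filled green points have an adjusted p under 0.05. C1R and C1S stood at 6.01 and 8.22 between the lines, and CFI passed in U343 (1.16).

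The order of the conditions by level differed between members. For C1R and C1S all 8 U251 libraries lay below all 8 U343 libraries, and the highest pair was U343 RIPSeq with miR-137, with mean levels of 360 CPM (SD 79.8, n = 2) and 265 CPM (SD 63.8, n = 2). For CFI the highest pair was the U343 RIPSeq controls, at 86.8 CPM (SD 6.14, n = 2), and the miR-137 groups of U251 RNASeq, U251 RIPSeq and U343 RNASeq were the lowest and overlapped each other. For CD59 the highest pair was again the U343 RIPSeq controls, at 1179 CPM (SD 104, n = 2), and the lowest was U251 RNASeq with miR-137. For CD55 the U251 RNASeq controls were the lowest, at 31.5 CPM (SD 3.40, n = 2), and the U251 miR-137 groups of both assays the highest and overlapping. Each experiment was scaled on its own, so these orders between experiments are descriptions.

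Genes whose levels ran most like a member's were ranked over the 16 libraries among 10723 genes, after the mean of each cell line and assay was subtracted, by Pearson's r of log2 CPM. For C1R the first were ATHL1, RNF31 and MLLT6 (0.97 for each), and for C1S MKNK1, SLC15A3 and RARRES3 (0.95 for each). For CFI they were PCGF6, FOXN3 and AHCYL1 (0.96 for each), and for CD46 ATRX, YWHAB and RAB6A (0.98, 0.97 and 0.97). For CD55 they were ANTXR2, RPRD1B and AP3M2 (0.97, 0.94 and 0.94), and for CD59 FH, NDUFA4 and COX6C (0.99, 0.98 and 0.98). These points share libraries and transfection groups, so r describes likeness only. C3 and SERPING1 had under 50 reads on average and were not ranked.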

How the data were processed

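RNASeq (total RNA) and RIPSeq (PABP pull-down) libraries of U251 and U343 cells were grouped as labelled, by line, RNA fraction and mimic, with 2 libraries per group. The authors aligned reads to hg18 with RMAP (version not given in the sources used here) and collapsed the RefSeq isoforms of each gene into 1 model for counting; the deposited unit is the count, per library and not normalized. How reads that map to several places, and strand, were counted is not given in the sources used here, so reads of a gene and an antisense partner or near-identical copy cannot be told apart. No other gene of the tables overlapped the 8 members. SLC35E2 is listed on 2 lines in the U251 tables, of which the first was kept. A further U251 replicate that the methods mention was not analysed here.

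Counts were tested with edgeR (4.0.16, R 4.3.3; quasi-likelihood F test, TMM, filterByExpr) within each experiment, with interaction terms for assay or cell line over 8 libraries, and Benjamini-Hochberg adjustment over all genes tested at 0.05. With 2 libraries per group a p rests on few degrees of freedom and on the spread shared across genes. CPM were TMM-scaled within an experiment. Ratios of summed reads used TMM-scaled totals and exact 95% (Clopper-Pearson) intervals, and a count of 0 allows up to 3 reads. Transcript lengths were not used, so an order of genes by reads or CPM is not an order by transcript number. Summed CPM of marker lists are dominated by their most abundant genes. The scripts were tested on simulated data. Alternatives were DESeq2 (1.42.0), upper-quartile normalization, no filter beyond 1 read, a filter of 50 reads on average, a joint fit of a cell line's 8 libraries, blocking by replicate number, the study's rule (Fisher's exact test in each of 4 control and miR-137 pairs, odds ratio over 2, adjusted p under 0.001 in all), and each library left out. The crossed block was chosen after seeing the data.

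The 9 members, the other gene lists and the tests were chosen with earlier results of these data known. All members were named. Other complement genes, those of the marker lists aside, were named where past the threshold in a miR-137 comparison. C5, C3AR1 and C5AR1 were singled out after their values were seen. Also past it, without further description, were MASP2, CFHR5 and VTN (higher) and ITGAM (lower) in U343 RIPSeq. In U251 RNASeq these were MASP2 and C1RL (both higher). COLEC12, CPN2 and CFHR4 passed in no miR-137 comparison and were named for their difference between the lines, also after it was seen. The marker lists were 7 glioma or astrocyte, 9 microglia or macrophage (8 in the tables), 3 endothelial, 4 hepatocyte (3 in the tables) and 3 epithelial genes. The interferon-response genes were STAT2, IRF1, IRF9, IFIT1, ISG15, MX1, OAS1 and IFNB1. The 3 most alike genes were taken for each member with at least 50 reads on average. Promoter windows and the miRNA were read from RefSeq tables (GRCh38.p14), a build other than that of the counts. C1S, C3 and SERPING1 had no entry. 2 genes of the lists are not reported here and were left out of the lists' counts and sums.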

Additional observations from a re-analysis of the deposited data

Results flagged for a closer look

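The miR-137 effect on CD55 in total RNA differed between the cell lines by an interaction of -1.88 on the log2 scale (SE 0.19, edgeR adjusted p = 0.00092), with U251 at 2.09 and U343 at 0.22. The U251 miR-137 libraries were at 140 and 129 CPM and their controls at 29.1 and 33.9 CPM, whereas the 4 U343 libraries lay between 64.4 and 84.3 CPM. The adjusted p ranged from 3.8e-14 to 0.0080 over the alternatives. In RIPSeq the interaction of CD55 was -0.89 (SE 0.46) and did not pass (edgeR adjusted p = 0.33). Cell line and library kit cannot be told apart. No group had 4 or more libraries, so no single library was tested against its group.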

How the results depend on the processing

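The number of members called moved with the processing as follows, and the cause was not tested. In U251 RNASeq (6), it was 3 in the joint fit (CFI, CD46 and CD59 lost, edgeR adjusted p = 0.13, 0.35 and 0.29), 3 under the filter of 50 reads (CD59 lost, C1R and C1S not tested) and 2 by the study's rule. Upper-quartile normalization and no filter beyond 1 read each removed the calls of CFI (edgeR adjusted p = 0.056 and 0.053) and CD59 (0.16 and 0.070), and the former moved the median of all genes by 0.14 and the split of all genes from 3749 higher and 3780 lower to 4588 and 3001. In U251 RIPSeq (0), it was 1 (C1S) with DESeq2, in the joint fit and by the study's rule; all genes called there were 589 higher and 534 lower with DESeq2, against 133 and 37. In U343 RNASeq (2) the study's rule gave 0, and in U343 RIPSeq (7) it gave 4; the joint fit there lost C1S (edgeR adjusted p = 0.064). DESeq2 gave 2 (C3, SERPING1) for the line difference in RIPSeq (0).

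With 1 library left out, members called ranged from 4 to 6 (U251 RNASeq), 0 to 8 (U251 RIPSeq), 0 to 5 (U343 RNASeq) and 6 to 7 (U343 RIPSeq), from 0 to 4 (U251) and 0 to 3 (U343) between assays, from 1 to 3 (RNASeq) and 0 to 5 (RIPSeq) between lines, from 0 to 6 (U251) and 1 to 2 (U343) for PABP-bound against total RNA, and from 4 to 5 for U343 against U251. The share of all genes called also changed with the library left out in each of these comparisons. Each such fit leaves 1 library in a group, so these ranges are not a property of the members alone. Whether the members moved more than other genes was not tested. Directions turned for the values that follow, and those of CD46 in U251 turned with the 2 unlike RIPSeq controls. For miR-137 against control these were C3 (-0.61 to 1.21), CD46 (-0.85 to 0.91) and CD59 (-0.42 to 0.26) in U251 RIPSeq, C1S (-0.26 to 0.74) and C3 (-0.89 to 2.60) in U343 RNASeq, and CD55 (-0.31 to 0.13) in U343 RIPSeq. Between assays they were C1S (-0.85 to 0.48), CFI (-0.31 to 0.12) and CD46 (-0.15 to 1.48) in U251 and CFI (-0.24 to 0.18) in U343. Between lines they were C3 (-2.37 to 1.59) and CFI (-0.50 to 0.052) in RNASeq and CFI (-0.21 to 0.032) and CD46 (-1.44 to 0.24) in RIPSeq. For PABP-bound RNA they were CD46 in U251 (-0.80 to 0.90) and SERPING1 in U343 (-0.98 to 3.20).

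Other settings reversed C3 in U251 RIPSeq (0.11 with no filter), C1S between assays in U251 (0.019 with no filter) and CFI between lines in RIPSeq (0.0077 with upper-quartile normalization). Libraries of a group share only a number: deviations of same-numbered libraries correlated at 0.08, -0.11, 0.13 and 0.42 in U251 RNASeq, U251 RIPSeq, U343 RNASeq and U343 RIPSeq. A replicate block gave 1 member (C1S) in place of 0 in U251 RIPSeq, reversed C3 there (0.15) and between lines in RNASeq (-0.12), and changed no other member's call. The crossed replicate block of U251 RIPSeq gave 1 member, and C3 at 0.15. Depth limits C1R, C1S, C3 and SERPING1 in U251 most, where C1R, the highest of them in any library, had at most 151 reads.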

Other observations

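Of 20 other complement genes tested in RNASeq, the miR-137 effect was higher in U343 than in U251 for 2 and lower for 1. These stand beside 12.5% and 12.7% of 15550 genes. In RIPSeq 0 of 23 passed, beside 3.28% of 15959 genes. The lower one was C1RL (-1.02, SE 0.27, edgeR adjusted p = 0.027), and the higher ones were CFD and C1QBP. CFD, the protease of the alternative pathway, had 15 and 20 control reads against 2 and 6 with miR-137 in U251 RNASeq, where it fell (-1.59, SE 0.54, edgeR adjusted p = 0.021), and 31 and 24 against 87 and 87 in U343 RIPSeq, where it rose (1.79, SE 0.22, edgeR adjusted p = 0.00031). In U343 RNASeq CFD was higher by 1.40 (SE 0.35) but did not pass (edgeR adjusted p = 0.059). In RNASeq its miR-137 effect was larger in U343 than in U251 by 2.99 (SE 0.68, edgeR adjusted p = 0.015). C1QBP, a receptor for the globular heads of C1q, fell in U251 RNASeq (-0.71, SE 0.15, edgeR adjusted p = 0.0014) from 540 and 649 CPM to 330 and 398 CPM, and its effect differed between the lines by 0.80 (SE 0.20, edgeR adjusted p = 0.021).

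SUSD4, a membrane regulator of complement, rose in U251 RNASeq (1.21, SE 0.46, edgeR adjusted p = 0.037) and in U343 RNASeq (1.33, SE 0.15, edgeR adjusted p = 0.011). CLU, the terminal pathway inhibitor clusterin, rose in U251 RNASeq (0.47, SE 0.14, edgeR adjusted p = 0.013), whereas in U251 RIPSeq it was at 375 and 263 CPM in the controls and 179 and 201 CPM with miR-137, lower without overlap but not past the threshold (-0.75, SE 0.27, edgeR adjusted p = 0.23). It was far more abundant in U343 control total RNA than in U251, at 1327 and 1347 CPM against 63.9 and 49.5 CPM (4.62, SE 0.15, edgeR adjusted p = 1.1e-07).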
